A study of Mus musculus with 4 samples.

Results

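The 10 genes described here are core components and direct outputs of the circadian clock, taken by gene symbol from the 19057 genes named on the array: Per1, Per2, Per3, Cry1, Arntl, Npas2, Nr1d1, Nr1d2, Dbp and Tef. They were carried by 17 of the 45281 probes. Of the 10 genes, 7 were detected on all 4 arrays, Per3 on 3 arrays, Npas2 on 1 array and Cry1 on none. The study measured transcripts in full skin punch biopsies, 5 mm across, of mice on the C57Black6/J background. Its 4 groups were skin of mice deficient in the BLT2 receptor taken 2 days after punching (BLT2KO_punched), wild-type skin taken 2 days after punching (WT_punched), unwounded skin of the deficient mice (BLT2KO) and unwounded wild-type skin (WT). BLT2, the product of Ltb4r2, is a low-affinity receptor for leukotriene B4 and is made in keratinocytes. Its own transcript was not analysed here, so the deletion was not checked. Each group was 1 array, carrying RNA mixed from 3 mice, so no group had a replicate, no difference could be tested and no p-value is given. The age of the mice and the time of day of the biopsies are not given in the sources used here. A difference in time of day between pools therefore cannot be told apart from punching or genotype.

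The clock is a feedback loop that runs in almost every cell of the body, skin included. The activators BMAL1 (encoded by Arntl) and NPAS2 or CLOCK bind DNA as a pair and switch on the Per and Cry genes, whose proteins then repress that pair. The same activators drive Nr1d1 and Nr1d2, which encode the nuclear receptors REV-ERB alpha and beta, and these in turn repress Arntl, Npas2 and Cry1. They also drive Dbp and Tef, which encode PAR bZIP transcription factors that carry the rhythm to other genes. In peripheral tissues of mice, transcripts of the Nr1d, Dbp, Tef and Per genes peak in the day or early evening, whereas Arntl and Npas2 peak around the end of the night. In mouse skin, clock genes are also known to vary with the hair growth cycle.

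Each value below is a normalized probe intensity on the log2 scale, and a gene was called detected on an array at a detection p-value under 0.01. The share of probes detected was between 36.2% and 38.0% on the 4 arrays. The brightest probe stood for a gene. The only error that can be given is technical: the SD of a single probe's log2 ratio (the probe SD), estimated from the disagreement between the 2 brightest probes of a gene, was 0.26 for the punched against unwounded comparisons in either genotype, 0.21 for BLT2KO against WT and 0.18 for BLT2KO_punched against WT_punched. It leaves out variation between pools and arrays, which both probes share, and was taken over bright and dim genes together. A ratio larger than it is therefore not shown to exceed the spread between pools. Of 8 keratinocyte markers 7 were named, and 6 or 7 of them were detected on each array, as were all 6 fibroblast markers. The summed linear level of the 7 keratinocyte markers was 77288 on BLT2KO_punched and 81336 on WT_punched, and 93259 on BLT2KO against 83725 on WT. That of the 6 fibroblast markers was 25125 on BLT2KO_punched and 22280 on WT_punched, and 34124 on BLT2KO against 28510 on WT. Of these, Pdgfra alone was higher with punching, 1.35-fold in BLT2KO and 1.61-fold in WT. Hair genes differed widely between the pools. The summed linear level of 9 named hair shaft genes, of a list of 10, was 35217 on BLT2KO_punched and 592 on WT_punched, and 35847 on BLT2KO against 1876 on WT, with Krt31 undetected on WT_punched. That of 8 neutrophil markers was 24322 on BLT2KO_punched and 27103 on WT_punched, and 4923 on BLT2KO against 14458 on WT. That of 6 adipocyte markers was 1641 on BLT2KO_punched and 4157 on WT_punched, and 3092 on BLT2KO against 3503 on WT. That of 8 skeletal muscle markers was 33022 on BLT2KO_punched and 40036 on WT_punched, and 32395 on BLT2KO against 35838 on WT. Muscle genes of slow fibres were highest on WT_punched. Tnnc1 was 22.7-fold and Tnnt1 8.60-fold higher there than on WT, and Myl2, undetected on both unwounded arrays, at least 31.4-fold higher. Tnnc1 was also 2.95-fold higher on BLT2KO_punched than on BLT2KO. Myh1, of the same muscle list, went the other way. It was 4.75-fold lower on WT_punched than on WT and 2.76-fold lower on BLT2KO_punched than on BLT2KO. Myl2 was 28.4-fold lower on BLT2KO_punched than on WT_punched. The summed linear level of 5 named macrophage markers was 11604 on BLT2KO_punched and 11263 on WT_punched, and 5258 on BLT2KO against 7712 on WT. Between the BLT2KO arrays 4 of the 5 were higher with punching and 1 (Csf1r, 1.03-fold) lower, and Cd14 differed most, at 9.87-fold higher. The part of keratinocytes, fibroblasts, hair, infiltrating cells, fat and muscle in the clock gene ratios was not tested. In such bulk samples fewer cells of a type and less RNA per cell cannot be told apart.

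Of the 10 genes, 9 had a promoter window in RefSeq on build GRCm38.p6, in 12 windows running from 250 bases before to 50 bases after a transcript start. Per2 had none. Each window was searched on both strands for the E-box CACGTG, to which the BMAL1 pair binds, for the D-box TTATGTAA or TTACGTAA, to which DBP and TEF bind, and for AGGTCA, the half-site of REV-ERB and ROR receptors. No match of one motif overlapped a match of another. An E-box stood in 4 of the 12 windows (the first window of Per1, both windows of Tef, and that of Cry1), against 7.15% of all 32851 windows of that length. A D-box stood in 1 window (Per3), against 1.06% of all windows. AGGTCA stood in 3 windows (the first of Per1, that of Nr1d2 and the second of Arntl), against 16.3%. The upstream parts of 5 windows are shown, because these genes include those with the largest differences between arrays (Dbp, Tef and Nr1d2), a gene with a pair of D-boxes (Per3) and the gene whose values departed from theirs (Per1). Capitals mark the motifs found, and AGGTCA on the opposite strand reads TGACCT.
Per1, chr11:69098699-69098948, plus strand: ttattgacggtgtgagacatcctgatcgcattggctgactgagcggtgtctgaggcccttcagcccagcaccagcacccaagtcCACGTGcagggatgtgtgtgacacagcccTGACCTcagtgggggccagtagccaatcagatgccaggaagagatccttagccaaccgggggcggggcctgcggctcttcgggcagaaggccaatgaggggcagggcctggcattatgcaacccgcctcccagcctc
Per3, chr4:151044666-151044915, minus strand: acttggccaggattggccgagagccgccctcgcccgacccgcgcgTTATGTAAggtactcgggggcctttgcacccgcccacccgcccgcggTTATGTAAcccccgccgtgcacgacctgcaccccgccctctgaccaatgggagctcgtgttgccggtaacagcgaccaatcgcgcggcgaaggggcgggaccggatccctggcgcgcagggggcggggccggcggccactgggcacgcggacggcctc
Dbp, chr7:45704997-45705246, plus strand: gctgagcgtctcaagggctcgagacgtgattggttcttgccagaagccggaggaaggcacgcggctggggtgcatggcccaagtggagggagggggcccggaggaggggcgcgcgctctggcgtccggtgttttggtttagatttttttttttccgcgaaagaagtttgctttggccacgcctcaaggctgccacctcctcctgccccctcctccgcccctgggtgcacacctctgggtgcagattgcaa
Tef, chr15:81802423-81802672, plus strand: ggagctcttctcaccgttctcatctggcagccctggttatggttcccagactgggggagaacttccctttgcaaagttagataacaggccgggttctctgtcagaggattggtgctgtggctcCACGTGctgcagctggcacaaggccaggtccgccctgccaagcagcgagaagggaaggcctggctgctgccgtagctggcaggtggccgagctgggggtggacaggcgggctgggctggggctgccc
Nr1d2, chr14:18239107-18239356, minus strand: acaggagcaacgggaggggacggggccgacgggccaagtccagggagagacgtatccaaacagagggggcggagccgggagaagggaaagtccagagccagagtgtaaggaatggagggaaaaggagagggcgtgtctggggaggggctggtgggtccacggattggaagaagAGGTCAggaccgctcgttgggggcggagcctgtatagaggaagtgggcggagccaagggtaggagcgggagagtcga
The E-box began 166 bases before the start in the first window of Per1 and 127 bases before it in the first window of Tef. The second window of Per1, at another transcript start, held none of the 3 motifs. The D-boxes of Per3 began 205 and 158 bases before its start. Dbp held none of the 3 motifs in this window, which says nothing of sites elsewhere in the gene. Arntl held AGGTCA only after a transcript start, so its bases are not shown.

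The output genes Dbp and Tef had lower levels on both punched arrays than on both unwounded arrays. Dbp had log2 levels of 10.78 on BLT2KO_punched and 10.46 on WT_punched, and of 11.43 on BLT2KO and 11.91 on WT. It was the brightest of the clock probes on each array, at 1599 to 3342 units of unnormalized intensity, far above the median of undetected probes (63.9 to 93.3). Tef had log2 levels of 8.99 on BLT2KO_punched and 8.06 on WT_punched, and of 9.53 on BLT2KO and 9.52 on WT. Its unwounded arrays thus lay 0.01 apart, and WT_punched was the low array. A second Tef probe, of another transcript, was detected on WT alone.

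The REV-ERB genes had the same order of arrays as Dbp. Nr1d1 had log2 levels of 7.09 on BLT2KO_punched and 7.06 on WT_punched, and of 7.32 on BLT2KO and 7.69 on WT. Nr1d2 had log2 levels of 6.09 on BLT2KO_punched and 5.91 on WT_punched, and of 6.64 on BLT2KO and 6.94 on WT. For both genes WT was the highest array, and the punched arrays lay no further apart than 0.18. The order WT, BLT2KO, BLT2KO_punched, WT_punched from high to low was that of 4 of the 7 fully detected clock genes (Per2, Dbp, Nr1d1 and Nr1d2), an order picked out after the values were seen. It was the order of 5.13% of the 9111 genes detected on all arrays. The highest and lowest arrays lay at least 2-fold apart for 4 of the 7 clock genes (Per2, Dbp, Tef and Nr1d2), against 9.82% of those 9111 genes. Neighbours in that order were closer than the probe SD for Per2 in unwounded skin and for Nr1d1 in punched skin. The Nr1d1 levels on BLT2KO_punched and BLT2KO, 0.22 apart, were also closer than it, and those of Nr1d2 on the punched arrays lay about 1 probe SD apart.

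The period genes, which encode the repressors of the loop, did not share a pattern. Per2 had log2 levels of 7.58 on BLT2KO_punched and 7.05 on WT_punched, and of 8.46 on BLT2KO and 8.52 on WT. A second Per2 probe gave 7.24 and 6.81 on the same punched arrays, and 8.08 and 7.99 on the same unwounded arrays. Both probes placed the punched arrays below the unwounded ones. Per1, which also responds to glucocorticoids and other acute signals, had log2 levels of 9.92 on BLT2KO_punched and 9.63 on WT_punched, and of 9.71 on BLT2KO and 9.65 on WT. Its second probe gave 8.69 on BLT2KO_punched and 8.35 on WT_punched, and 8.13 on BLT2KO and 7.87 on WT. The brighter Per1 probe therefore spanned 0.29 over the 4 arrays and the dimmer one 0.81, with BLT2KO_punched highest on both. Per3 was dim: its log2 level was 5.29 on BLT2KO_punched and it was not detected on WT_punched, against 5.84 on BLT2KO and 5.76 on WT. The other repressor, Cry1, was not well above background on any array.

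Among the activators, Arntl was detected on every array but was dim. Its unnormalized intensity was 137.0 on BLT2KO_punched and 155.4 on WT_punched, and 146.5 on BLT2KO against 105.0 on WT. Its log2 levels were 5.89 on BLT2KO_punched and 6.26 on WT_punched, and 6.67 on BLT2KO against 5.93 on WT. BLT2KO was thus the high array, and BLT2KO_punched and WT lay 0.05 apart, which is less than the probe SD. Npas2, the partner of BMAL1 that can replace CLOCK, was detected on WT_punched alone, at a log2 level of 5.28.

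**Figure D1:**
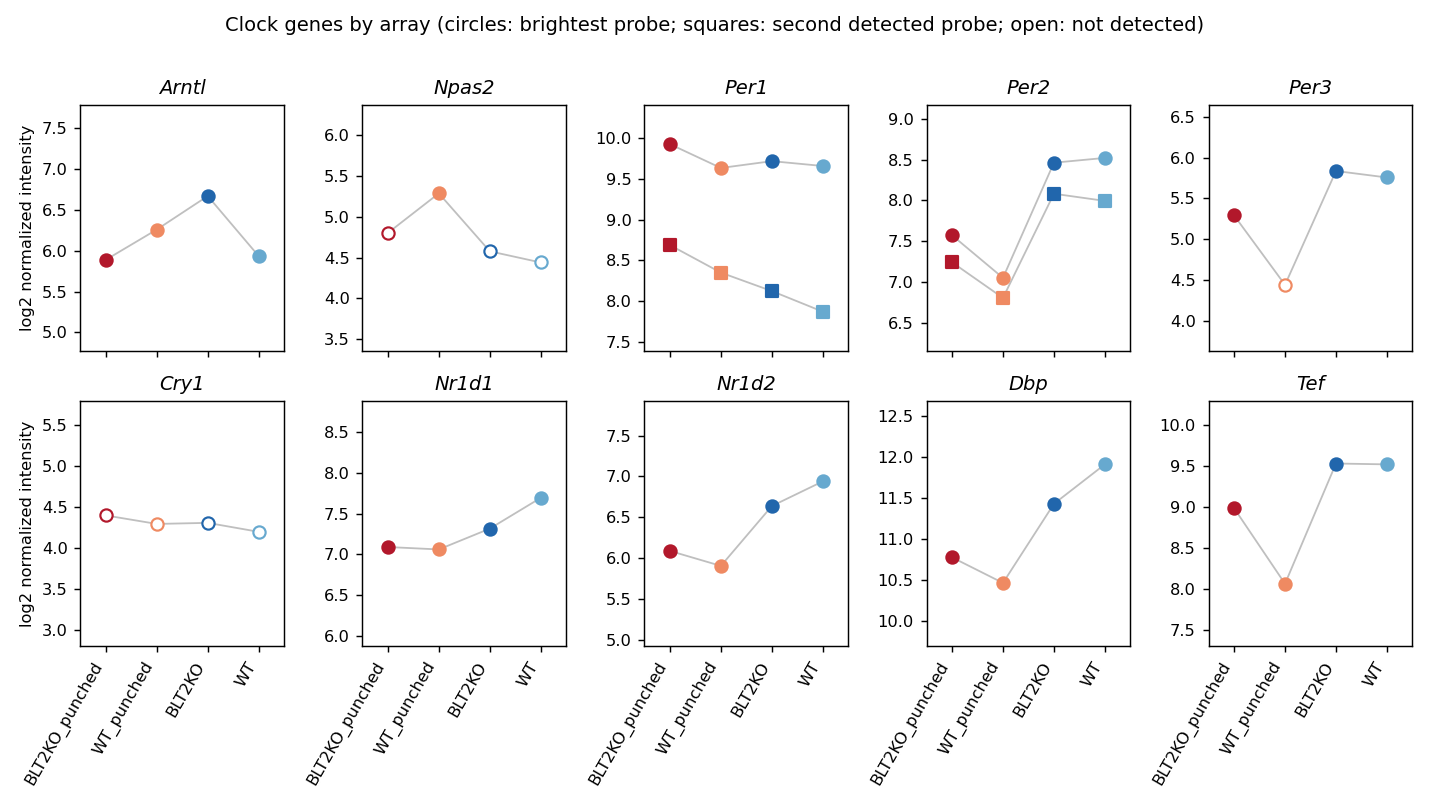
Log2 normalized intensity (vertical axes, each panel spanning at least 3 log2 units) of the 10 clock genes on the 4 arrays (horizontal axes, 1 pool of 3 mice each). Circles are the brightest probe, squares a second probe detected on all arrays, and open symbols probes not detected on that array; Dbp, Tef, Per2 and Nr1d2 lie lowest on WT_punched, and Arntl lies highest on BLT2KO.

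Punching was compared in wild-type skin on the WT_punched and WT arrays. Per2 was 2.76-fold lower, Tef 2.75-fold lower and Dbp 2.73-fold lower in punched skin, and Nr1d2 was 2.05-fold lower. These were 4 of the 9 clock genes measured in this comparison. Of these 9 genes, none was higher by 2-fold. Over all 10382 genes measured, 1.48% were lower and 1.94% higher by that much. The median log2 ratio was -0.63 over the 9 clock genes and 0.03 over all genes. Nr1d1 was 1.55-fold lower, which made 5 clock genes past 1.5-fold, against 6.57% of all genes. Per3 was at least 1.47-fold lower, because it was not detected on WT_punched. Its log2 ratio was -0.55 at that bound, and -0.23 without background subtraction, -0.16 in the authors' processed values and -0.015 with the mean of probes. The second Per2 probe was 2.28-fold lower. Arntl went the other way, 1.25-fold higher, a log2 ratio of 0.32 that is close to the probe SD of 0.26. Per1 was 1.02-fold lower by its brighter probe and 1.39-fold higher by its dimmer one, so its direction was not settled, and under median scaling the brighter probe had a log2 ratio of 0.29. Npas2 was at least 1.04-fold higher.

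The size of these ratios depended on background correction for the dim genes and less so for Dbp. The log2 ratio of Dbp was between -1.45 and -1.15 over the alternatives. That of Nr1d2 was -0.60 without background subtraction and -0.56 in the authors' processed values, so that 3 clock genes remained at least 2-fold lower under these settings. With the mean of all probes of a gene, which takes in undetected probes, only Dbp was at least 2-fold lower. Median scaling moved the median of all genes to 0.25 and gave 399 genes higher and 85 lower, against 201 and 154 in the main processing. The log2 ratios of Per2, Dbp and Tef were below -1 there too.

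The same comparison in skin without BLT2, BLT2KO_punched against BLT2KO, gave smaller ratios for the output genes and the opposite sign for Arntl. None of the 8 clock genes measured was past 2-fold, whereas 1.71% of all 10587 genes were lower and 3.1% higher by that much. Per2 was 1.85-fold lower (1.79-fold by its second probe), Arntl 1.72-fold lower and Dbp 1.57-fold lower. These 3 genes were the only clock genes lower by 1.5-fold, as 7.63% of all genes were. None was higher by 1.5-fold, as 8.17% of all genes were. Nr1d2 was 1.46-fold, Tef 1.46-fold, Per3 1.46-fold and Nr1d1 1.17-fold lower. Per1 was 1.15-fold higher by its brighter probe and 1.48-fold higher by its dimmer one. The median log2 ratio was -0.55 over the 8 clock genes and 0.00 over all genes. Arntl had log2 ratios of -0.43 without background subtraction and -0.34 in the authors' processed values, against -0.78 in the main processing.

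**Figure D2:**
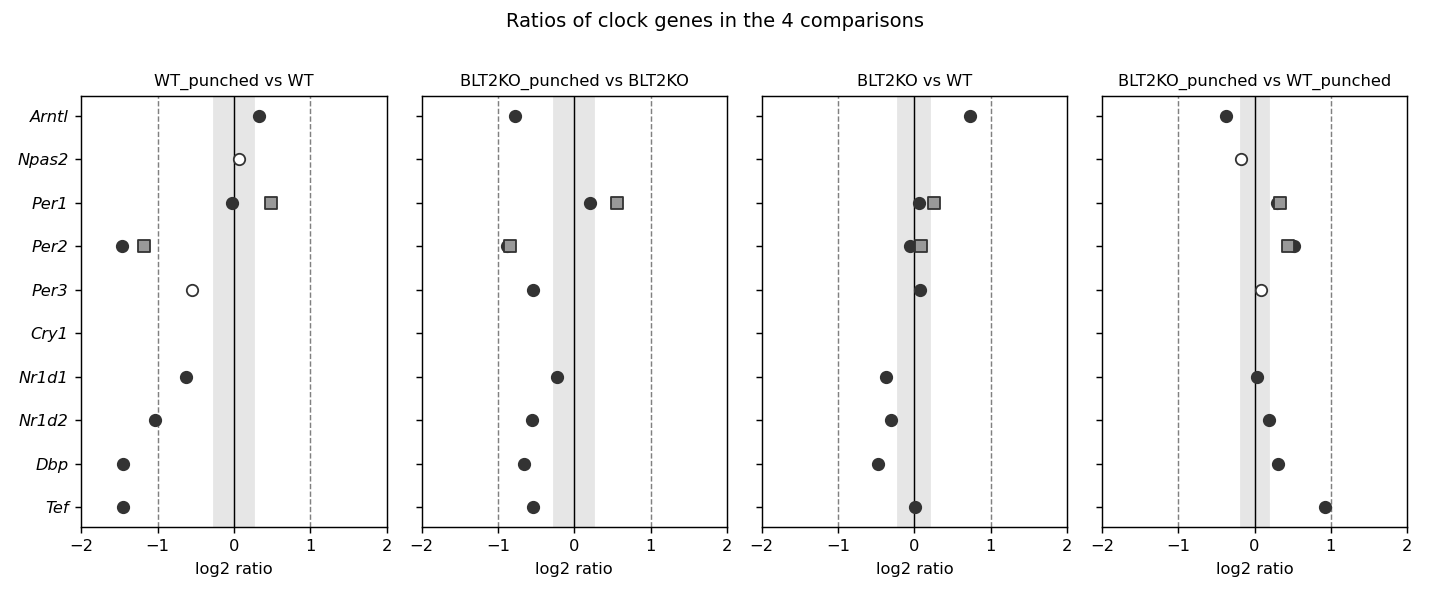
Log2 ratios (horizontal axes) of the clock genes in the 4 comparisons, with circles for the brightest probe, grey squares for a second probe detected on all arrays and open symbols for bounds. The grey band is the probe SD on either side of 0 and dashed lines mark 2-fold; Per2, Dbp, Tef and Nr1d2 lie past 2-fold in WT_punched against WT, and no gene does in the other comparisons.

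The wound ratios of the genotypes were set against each other for the 7 clock genes detected on all arrays. In log2 units, the ratio in BLT2KO minus the ratio in WT was 0.91 for Tef, 0.80 for Dbp, 0.58 for Per2, 0.48 for Nr1d2, 0.41 for Nr1d1 and 0.23 for Per1. A positive value means a smaller loss, or a larger gain, in BLT2KO skin. For Arntl the difference was -1.10, that is, 2.15-fold, and it was the 1 clock gene past 2-fold. Of all 9111 genes, 0.571% were past 2-fold in that direction, 3.27% past 1.5-fold, and 1.17% past 2-fold in the other. Tef and Dbp were past 1.5-fold in the other direction, as were 4.14% of all genes. The median difference was 0.48 over the 7 clock genes and 0.00 over all genes. Without background subtraction the Arntl difference was -0.61, and it was -0.54 in the authors' processed values. With the mean of all probes, that of Per1 turned to -0.04 and that of Per2 was 0.14. The second Per2 probe gave 0.35. These differences could not be tested. For Tef, the punched arrays lay 0.92 apart and the unwounded arrays 0.01.

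**Figure D3:**
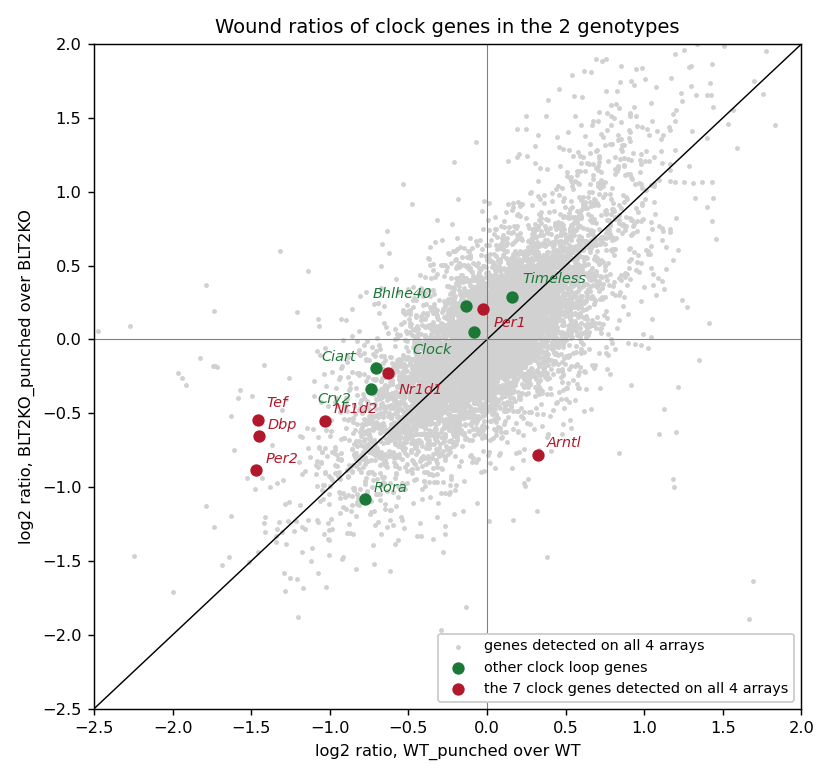
Log2 ratio of BLT2KO_punched over BLT2KO (vertical axis) against that of WT_punched over WT (horizontal axis) for genes detected on all 4 arrays in grey, other clock loop genes in green and the 7 clock genes in red; the diagonal marks equal ratios, and 75 genes lie outside the axes, which run between -2.5 and 2. Tef, Dbp and Per2 lie left of the diagonal, with lower ratios in WT, and Arntl lies below it.

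In unwounded skin, BLT2KO and WT differed by less than 2-fold in each of the 8 clock genes measured. Over all 10235 genes, 1.08% were higher and 1.17% lower by that much, so that count does not set the clock genes apart. Arntl was 1.66-fold higher in BLT2KO and was the 1 clock gene past 1.5-fold in that direction, as were 3.37% of all genes. None was lower by 1.5-fold, as 4.27% of all genes were. The Arntl log2 ratio was 0.73, and 0.41 without background subtraction and 0.34 in the authors' processed values. Dbp was 1.40-fold, Nr1d1 1.30-fold and Nr1d2 1.23-fold lower in BLT2KO. All 3 log2 ratios, of -0.48, -0.38 and -0.30, were larger in size than the probe SD of 0.21 in the main processing. That of Nr1d2 was smaller than it without background subtraction (-0.19) and with median scaling (-0.18). The brightest probes of Per1, Per2, Per3 and Tef lay within 0.08 of 0 on the log2 scale, and the sign changed under at least 1 alternative for Per2, Per3 and Tef. The second Per1 probe had a log2 ratio of 0.25, larger than the probe SD. The median log2 ratio was -0.02 over the 8 clock genes and -0.01 over all genes.

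In punched skin, BLT2KO_punched had higher levels than WT_punched for the output and period genes and a lower level for Arntl. Tef was 1.90-fold higher, the 1 clock gene of 9 measured past 1.5-fold, against 2.51% of all 10540 genes higher and 2.38% lower by that much. No clock gene was past 2-fold, against 1.08% of all genes higher and 0.541% lower. Per2 was 1.44-fold higher (1.35-fold by its second probe), Dbp 1.24-fold and Per1 1.22-fold higher (1.26-fold by its second probe). Nr1d2 was 1.14-fold and Nr1d1 1.02-fold higher, both within about 1 probe SD of 0.18. Per3 was at least 1.06-fold higher, since WT_punched did not detect it, but was lower under 2 alternatives. Arntl was 1.29-fold lower and Npas2 at least 1.14-fold lower. The median log2 ratio was 0.18 over the 9 clock genes and -0.03 over all genes. The 4 comparisons share arrays with each other, so their ratios are not independent.

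The opposite arms of the loop were also read within each array, so that a constant factor on that array cancels. Each gene was centred on its mean of the 4 arrays, and Arntl was subtracted from the mean of Per1, Per2, Dbp, Tef, Nr1d1 and Nr1d2. The value was 0.12 on BLT2KO_punched and -0.62 on WT_punched, and -0.21 on BLT2KO against 0.71 on WT, in log2 units. WT was thus highest and WT_punched lowest, 1.34 apart. The difference between the BLT2KO arrays was 0.34, and it turned to -0.30 when undetected genes were included. Arntl alone stood for its arm, because Cry1 and Npas2 were not detected on all arrays. The mean of the other 6 genes was 2.01-fold lower in WT_punched than in WT and 1.36-fold lower in BLT2KO_punched than in BLT2KO.

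**Figure D4:**
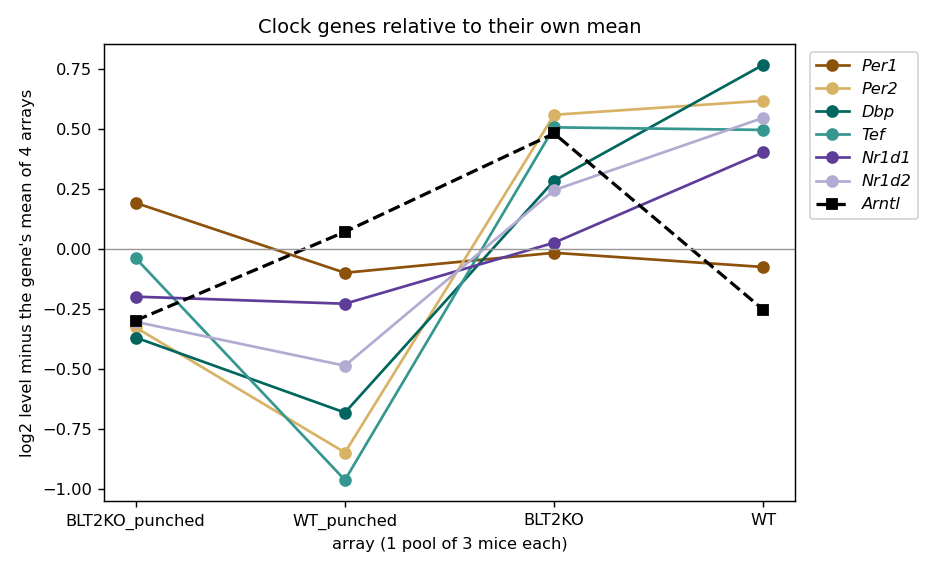
Log2 level of the 7 fully detected clock genes minus each gene's own mean of the 4 arrays (vertical axis), by array (horizontal axis), with Arntl as the dashed black line. Per2, Dbp, Tef, Nr1d1 and Nr1d2 are above 0 on both unwounded arrays, whereas Arntl is highest on BLT2KO and below 0 on WT.

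Other genes of the loop were taken from a list of 12, of which 10 were named and 6 were detected on all arrays. Clock, which encodes the main partner of BMAL1, stayed within a range of 0.16 in log2 level, from 9.33 on BLT2KO to 9.49 on WT. Bhlhe40, a repressor that competes at E-boxes, ranged over 0.27, and Timeless over 0.42. The remaining genes, Cry2, Ciart and Rora, had lower levels in punched skin. Cry2, the second cryptochrome repressor, had log2 levels of 6.27 on BLT2KO_punched and 6.02 on WT_punched, and of 6.60 on BLT2KO and 6.76 on WT. It was 1.26-fold lower with punching in BLT2KO and 1.67-fold lower in WT. Ciart, which encodes the repressor CHRONO, had log2 levels of 7.27 on BLT2KO_punched and 6.81 on WT_punched, and of 7.47 on BLT2KO and 7.52 on WT. It was 1.63-fold lower with punching in WT, and its other probes, both detected on all arrays, gave 1.83-fold and 1.60-fold. In BLT2KO the 3 Ciart probes gave 1.15-fold, 1.27-fold and 1.48-fold lower. Cry2 and the brightest Ciart probe followed the order of arrays seen for Dbp, which 5.13% of the genes detected on all arrays had. On that Ciart probe the unwounded arrays lay only 0.05 apart, less than the probe SD of 0.21. The second Ciart probe did not follow the order, with BLT2KO (7.53) above WT (7.35).

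Rora, which encodes an activator of Arntl that opposes REV-ERB, had log2 levels of 8.99 on BLT2KO_punched and 8.84 on WT_punched, and of 10.07 on BLT2KO against 9.62 on WT. It was 2.12-fold lower with punching in BLT2KO and 1.71-fold lower in WT. In BLT2KO it was the 1 of 6 measured loop genes past 2-fold, against 1.71% of all genes lower by that much. BLT2KO was its highest array, as it was for Arntl, Tef and Per3, and a link between these genes was not tested. Rorb, Arntl2, Bhlhe41 and Hlf were not detected on any array. Over the 6 measured loop genes the median log2 ratio with punching was -0.07 in BLT2KO and -0.42 in WT, against 0.00 and 0.03 over all genes.

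Kinases, ubiquitin ligases and other modifiers of clock proteins showed 0 of 9 measured genes past 2-fold in any comparison. With 0.541% to 3.1% of all genes past 2-fold in each direction, that count does not set them apart. Their median log2 ratios lay between -0.17 and 0.12. Usp2, a deubiquitinase that is itself under clock control, had log2 levels of 9.80 on BLT2KO_punched and 9.44 on WT_punched, and of 10.03 on BLT2KO and 10.08 on WT. It was 1.56-fold lower with punching in WT and 1.17-fold lower in BLT2KO. Of 16 further genes reported as rhythmic in other tissues, 13 were measured and 0 passed 2-fold in any comparison, with medians between -0.13 and -0.03, again a count near the share over all genes. In WT_punched against WT, 6 of the 13 had log2 ratios above 0 and 7 below, with a median of -0.06. Over all 10382 genes, 5524 were above 0 and 4842 below. The 13 ratios ran from -0.53 to 0.40. The lowest was Klf9 (-0.53). Also below 0 were Nampt (-0.35), which encodes an enzyme of NAD synthesis, and Elovl3 (-0.21), which encodes a fatty acid elongase. Among those above 0 were Klf10 (0.40) and Ppp1r3c (0.33).

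Glucocorticoid-responsive genes were read because this hormone follows the time of day and also acts on Per1. Of 8 such genes, all measured, 1 was lower by 2-fold in BLT2KO_punched against BLT2KO, where 1.71% of all genes were, and 2 in WT_punched against WT, where 1.48% were. Fkbp5, a co-chaperone of the glucocorticoid receptor, had log2 levels of 8.14 on BLT2KO_punched and 7.75 on WT_punched, and of 9.07 on BLT2KO and 9.18 on WT. It was 1.91-fold lower with punching in BLT2KO and 2.69-fold lower in WT. Zbtb16, which encodes the repressor PLZF, was 2.52-fold lower with punching in BLT2KO and 2.53-fold lower in WT. The other 6, among them Sgk1 and Tsc22d3, were under 2-fold in both, and the medians were -0.41 in BLT2KO and -0.21 in WT.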

How the data were processed

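Per the labels' protocols, total RNA of 3 mice per group was pooled, amplified and labelled with biotin, read on Illumina MouseWG-6 BeadChips and exported with BeadStudio. The authors deposited linear intensity values without normalization for 45281 probes on 4 arrays, with a detection p-value beside each intensity, per the file headers. The authors' second table held the same intensity values times 1 constant per array (0.950 for BLT2KO_punched, 0.963 for WT_punched, 1.12 for BLT2KO and 1.24 for WT), with no background subtraction.

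Intensities were corrected and quantile-normalized with neqc of limma 3.58.1 in R 4.3.3, which estimates background from the detection p-values, with an offset of 16, and were put on the log2 scale. Further steps used Python 3.11.15, numpy 2.4.6, pandas 2.3.3 and matplotlib 3.10.9, and the steps were tested on simulated data. Background correction enlarges the ratios of dim genes such as Arntl and Nr1d2. The platform annotation named 1 gene for 34885 probes and several for 18, which stayed unnamed with 10378 unlisted probes. A gene entered a comparison if detected (p-value under 0.01) on at least 1 of its 2 arrays. An undetected side was set to the higher of its value and the lowest detected log2 value of that array (5.10 to 5.23), and the ratio is printed as at least that size. Genes were counted at 2-fold, with 1.5-fold as an alternative. With 1 array per group nothing was tested, and the number of arrays limits the precision. Named genes were by rule the 10 members, the measured genes of the loop list, and up to 4 genes past 2-fold of each other list. Cell type lists depart from it, being given as sums with few genes named. Usp2, Nampt, Elovl3, Klf9, Klf10, Ppp1r3c, Sgk1, Tsc22d3, Hspa1b, Cirbp, Fosb and Egr1 were added after their values were seen. The members and lists were chosen with earlier results of these data known. Promoter sequences are from RefSeq (GRCm38.p6), and the array files name no build. Alternatives changed the background correction, scaling, offset, source of values, detection filter, choice of probe and fold.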

Additional observations from a re-analysis of the deposited data

Results flagged for a closer look

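With punching, 2 clock genes and the difference between the arms of the loop had log2 ratios of opposite sign in the genotypes. Each rests on 1 array per group, and none of these differences was tested. The log2 ratio of Arntl was -0.78 in BLT2KO and 0.32 in WT. That of Per1 was 0.21 in BLT2KO and -0.024 in WT by the brighter probe, both within the probe SD of 0.26, while the dimmer Per1 probe was above 0 in both, at 0.56 in BLT2KO and 0.48 in WT. The mean of Per1, Per2, Dbp, Tef, Nr1d1 and Nr1d2 relative to Arntl differed by 0.34 between BLT2KO_punched and BLT2KO and by -1.34 between WT_punched and WT. That mean alone was lower with punching in both genotypes, by log2 ratios of -0.44 in BLT2KO and -1.01 in WT. The opposite sign thus came from Arntl and is not a separate result. The BLT2KO value was 0.022 in the authors' processed values and -0.30 with no detection filter.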

How the results depend on the processing

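No ratio past 2-fold of a clock gene changed sign under the alternatives tried. Per1, near 0 in WT_punched against WT, went to 0.29 with median scaling and 0.28 with the mean of probes. The count of clock genes at least 2-fold lower in WT_punched against WT was 4, and 3 to 5 under all settings other than the mean of probes, which gave 1 because undetected probes enter the mean. At 1.5-fold, 3 clock genes were lower in BLT2KO_punched against BLT2KO, 1 (Arntl) was higher in BLT2KO against WT and 1 (Tef) was higher in BLT2KO_punched against WT_punched. Median scaling put Tef past 2-fold in that last comparison, a count of 1 in place of 0.

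The median of clock genes in WT_punched against WT was -1.03 over those detected on all 4 arrays, since fewer genes entered. In BLT2KO_punched against BLT2KO it was -0.28 in the authors' processed values and -0.27 with the mean of probes. Of the values for single genes, 37 moved by more than the probe SD. With no detection filter Per3 in BLT2KO_punched against WT_punched was 0.85 in place of 0.09. Other large moves were in Npas2 (0.85 in place of 0.06) and Per3 (-1.31 in place of -0.55) with no detection filter and in Per2 (-0.73 in place of -1.47) with the mean of probes, all in WT_punched against WT. The difference between the arms for BLT2KO against WT was -0.93, and -0.57 without background subtraction, -0.68 with an offset of 50, -0.50 in the authors' processed values and -0.48 with no detection filter. For BLT2KO_punched against WT_punched it was 0.75, and 0.50 without background subtraction, 0.53 in the authors' processed values and 0.56 with the mean of probes. For WT_punched against WT it was -1.34, and -0.99, -1.005 and -0.996 under these same 3 settings. For BLT2KO_punched against BLT2KO it was 0.34, and 0.022 in the authors' processed values and -0.30 with no detection filter, where undetected genes enter the arms. The other 107 values of these counts, medians and arm differences stayed within 1.5 times the count or within the probe SD.

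The alternatives for the wound ratio in BLT2KO minus that in WT were added after seeing the data, and its median over 7 clock genes was 0.48, with 0.26 to 0.48 under them. No paired analysis was possible because each group has 1 array. No array could be left out for the same reason. Signal over background limits Arntl, Nr1d2, Per3, Npas2 and Cry1.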

Other observations

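Immediate early genes, which respond within minutes to handling or injury, were a list of 8. In BLT2KO_punched against BLT2KO, 2 of 7 measured were at least 2-fold higher: Junb (2.46-fold) and Atf3 (2.07-fold), against 3.1% of all genes. In WT_punched against WT, 0 of 6 were past 2-fold, against 1.94% of all genes higher and 1.48% lower, with Junb 1.37-fold and Atf3 1.58-fold higher. In unwounded skin all 6 measured were lower in BLT2KO than in WT, by less than 2-fold, with a median log2 ratio of -0.45. Over all genes, 5360 of 10235 were lower in BLT2KO, with a median of -0.01. The 6 genes were read on 1 pool per group, and their shared direction was not tested. Of 7 heat- and cold-responsive genes, which follow the daily body temperature rhythm in mice, 6 were measured and 0 passed 2-fold in any comparison, where 0.541% to 3.1% of all genes did in each direction. With punching, their median log2 ratio was -0.20 in BLT2KO and -0.39 in WT. The heat shock gene Hspa1b had log2 ratios of -0.81 in BLT2KO and -0.65 in WT, and the cold-inducible Cirbp -0.13 in BLT2KO and -0.52 in WT.

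Among 9110 other genes detected on all arrays, the profiles closest to Dbp, by Euclidean distance between log2 levels centred on their mean of 4 arrays, were Sfr1 (0.18), Srp54a (0.20) and Tra2b (0.22). The closest to Arntl were Znhit6 (0.08), Pank3 (0.10) and Card14 (0.13). Within a distance of 0.5 there were 119 genes for Dbp and 858 for Arntl, so 4 arrays do not single out these genes.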
